A study of Mus musculus with 16 samples.

Results

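The 6 genes described here, Sox10, S100b, Ngfr, Dbh, Th and Prph, are genes used as markers of the nerves of the heart and of the Schwann cells that wrap them. They were taken from a list of names and matched to the gene identifiers of the deposited table through a mouse GENCODE annotation, which gave 6 of 51912 genes, and the rule used no measured value. The table holds 16 RNA sequencing libraries of whole neonatal mouse ventricles, in infarcted hearts the tissue on both sides of the ligature, taken at 7 days after surgery. Mice were C57BL/6J wild type (WT) or whole-body Lrrc10-/- knockouts made in a C57BL/6 background (KO), and Lrrc10 encodes a protein of cardiomyocytes. Surgery at postnatal day 1 was either a myocardial infarction (MI), in which the left anterior descending artery was tied, or a sham operation (SH) without ligation. In MI the heart was also brought out of the chest, whereas in SH it was not exposed. Each comparison of MI with SH therefore also carries this difference in handling. Every animal, sham included, was anesthetized on ice. The groups, written WT SH, WT MI, KO SH and KO MI, had 4 libraries each (4 groups), and the study asked how loss of Lrrc10 alters the neonatal heart and its response to infarction.

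The ventricle is supplied mainly by sympathetic axons, whose cell bodies lie in ganglia outside the heart, and these axons make and release noradrenaline. Noradrenaline is built from tyrosine in steps: tyrosine hydroxylase (Th) makes L-DOPA, the decarboxylase Ddc makes dopamine and dopamine beta-hydroxylase (Dbh) makes noradrenaline, which the transporter Slc6a2 takes back up. The axons run with Schwann cells, glia of neural crest origin whose identity depends on the transcription factor Sox10, and axons grow into the neonatal heart along trophic and guidance cues that they read through receptors such as Ngfr.

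The libraries held between 33783874 and 57470159 counts. Lrrc10 was at 0 counts in all 8 KO libraries and between 1075 and 1850 counts in the WT libraries, as labelled. The submitters describe the groups as balanced for sex, but the counts of Xist and Y-linked genes marked all 4 WT SH libraries as male, against 2 male and 2 female libraries in each of the other groups, so each comparison with WT SH also carries a difference in sex. In KO MI, replicates 2 and 7 stood apart by skeletal muscle genes, with summed levels over 20 such genes of 198 and 152 CPM (counts scaled to the size of the library, after the TMM scaling of edgeR). Replicates 1 and 3 were at 31.4 and 43.9 CPM, also above the other groups, where no library exceeded 29.4 CPM.

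Genes that define glia and neurons were checked in the same libraries, and part of each list was near 0. Of 20 genes of the Schwann cell lineage, 0 were at 0 counts in all libraries, 1 never rose above 3 counts and 4 never above 10, and of 18 myelin genes these numbers were 0, 1 and 6. The glial genes Gfap, Gpr37l1, Sox2 and Foxd3 reached at most 3, 4, 5 and 10 counts. Erbb3, the glial receptor for neuregulin, averaged 5.98 CPM and Cdh19, a cadherin of Schwann cell precursors, averaged 1.36 CPM over the 16 libraries. Of 18 genes of noradrenergic neurons, 2 were at 0 in all libraries, 5 never rose above 3 counts and 9 never above 10. Slc6a2 reached 4 counts at most and the neuropeptide gene Npy reached 7, and the neuronal transcription factor Hmx1 was at 0 in all libraries. Of 12 genes of cholinergic neurons, 4 were at 0 in all libraries, the defining genes Chat and Slc18a3 among them, 7 never rose above 3 counts and 8 never above 10. Of 22 pan-neuronal genes the numbers were 0, 1 and 9. In such bulk samples, fewer cells of a type and less RNA per cell cannot be told apart.

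Th and Dbh encode enzymes of the same pathway but were measured at very different levels. The DNA before their start sites is shown as a description, and a link between these letters and the levels was not tested. The 250 bases before each start come from RefSeq on build GRCm38.p6, which is not the build of the counts, and 5 of the 6 genes had an entry there, all but Sox10. The Th stretch is chr7:142899996-142900245 on the minus strand and the Dbh stretch is chr2:27165257-27165506 on the plus strand. Capitals mark the letters TGACGTCA, the cAMP response element, which reads alike on both strands, and the letters ATTA on either strand (TAAT on the other), the core of many homeodomain sites, and these 2 motifs do not overlap in either stretch.
Th: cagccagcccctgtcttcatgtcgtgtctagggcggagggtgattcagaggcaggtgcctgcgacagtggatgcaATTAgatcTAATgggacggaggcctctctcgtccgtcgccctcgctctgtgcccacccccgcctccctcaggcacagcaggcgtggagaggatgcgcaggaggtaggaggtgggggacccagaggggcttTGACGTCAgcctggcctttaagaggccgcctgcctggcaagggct
Dbh: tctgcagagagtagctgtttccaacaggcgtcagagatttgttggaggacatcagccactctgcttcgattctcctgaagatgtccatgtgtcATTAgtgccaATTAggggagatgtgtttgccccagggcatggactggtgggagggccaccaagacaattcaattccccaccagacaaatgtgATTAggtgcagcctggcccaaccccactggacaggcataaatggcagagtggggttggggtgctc
The cAMP response element began 45 bases before the start of Th and was not among the letters before Dbh, and 1.56% of 32536 mouse promoters of this length held it. The ATTA core began 175 and 167 bases before the start of Th and 157, 147 and 65 bases before that of Dbh, and 54.8% of the promoters held it at least once. A TATA box (TATAAA, either strand) was present before Prph, 31 bases from its start, but in none of the other 4 stretches, and 12.3% of promoters held it. These matches are descriptions of letters and not of binding.

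**Figure D1:**
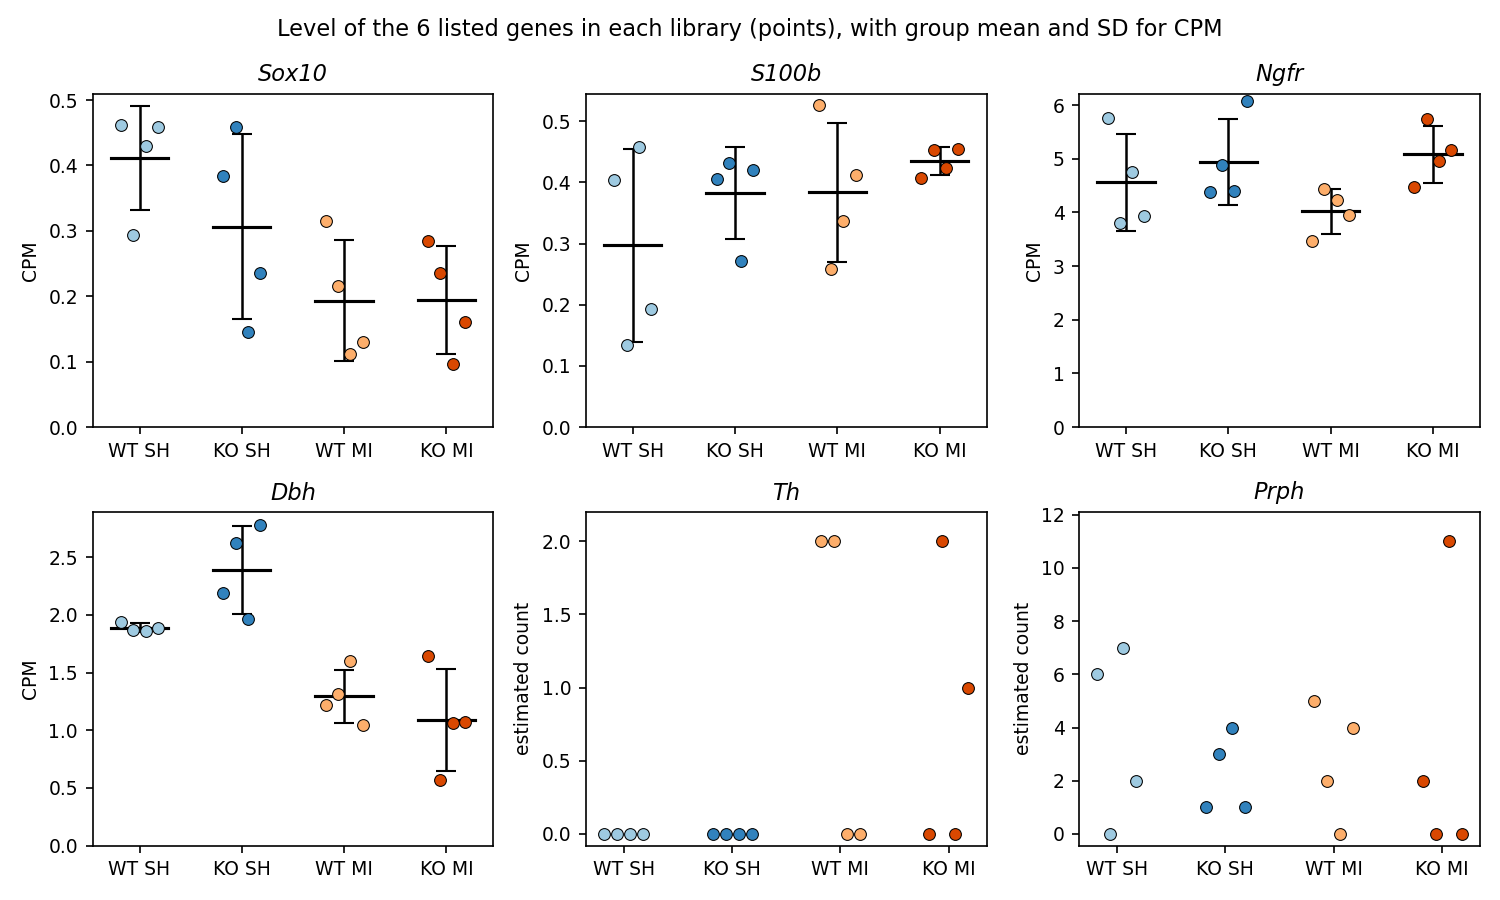
Levels of Sox10, S100b, Ngfr and Dbh in CPM and of Th and Prph as estimated counts, on linear y axes, by group on the x axis, with 1 point per library. Bars are the mean and SD of 4 libraries and are drawn for the CPM panels only. Dbh libraries of KO SH sit between 1.96 and 2.78 CPM, above all 4 KO MI libraries, which sit between 0.571 and 1.65 CPM, whereas Th is at 0 counts in all 8 sham libraries and at most at 2 counts in any other.

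Th (ENSMUSG00000000214, GRCm39 chr7:142443466-142484865, minus strand, with a long noncoding RNA on the opposite strand) encodes the rate-limiting enzyme of catecholamine synthesis. It had 0 counts in all 8 SH libraries. The WT MI libraries held 2, 2, 0 and 0 counts and the KO MI libraries held 0, 2, 0 and 1 counts. All 16 values lay below 3 counts, the level that a count of 0 allows in a library, which at these depths corresponds to 0.0577 to 0.0858 CPM. A difference in Th was not detectable at this depth and no fold is given. Th failed the minimum of 10 summed counts in each group and was not tested.

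Dbh (ENSMUSG00000000889, GRCm39 chr2:27055245-27074212, plus strand, with the noncoding gene Dbhos on the opposite strand) was the member with the clearest difference between groups. It read 1.94, 1.87, 1.86 and 1.89 CPM in WT SH and 2.19, 2.62, 1.96 and 2.78 CPM in KO SH. After infarction it read 1.22, 1.31, 1.60 and 1.04 CPM in WT MI and 1.65, 0.571, 1.06 and 1.07 CPM in KO MI. All 8 MI libraries lay below all 8 SH libraries. Within a genotype, 5.94% (WT) and 7.24% (KO) of all tested genes lay lower after infarction without overlap. The share that did so over both genotypes together was not counted. The order of the group means was KO SH (2.39 ± 0.379 CPM, SD, n = 4), WT SH (1.89 ± 0.0364), WT MI (1.29 ± 0.232) and KO MI (1.09 ± 0.440), and of the neighbours in this order WT MI and KO MI overlapped. The WT SH libraries agreed more closely than counting error alone allows on average, since the counting SD at 65 to 101 counts per library was 0.216 CPM. Th, Slc6a2 and Npy, also used as genes of sympathetic neurons, reached at most 2, 4 and 7 counts in any library. Which cells gave the Dbh reads was not tested.

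In KO hearts, Dbh fell by 1.13 on the log2 scale after infarction (SE 0.23, adjusted p = 0.00492, edgeR quasi-likelihood test with Benjamini-Hochberg adjustment over the 20159 genes tested), and the exact permutation test over libraries gave p = 0.0286 (two-sided), the smallest that 4 libraries against 4 allow. Dbh was 1 of 4 tested members called differentially expressed in this comparison (a call needed an adjusted p under 0.1 and a change of 0.5 or more on the log2 scale, up or down), and 7.42% of all tested genes were called, with 5.31% higher and 2.11% lower. The groups did not overlap for Dbh, and 7.24% of all tested genes lay lower in KO MI without overlap. Leaving out any single library gave log2 fold changes from -1.41 (without KO MI replicate 1) to -0.91 (without KO MI replicate 2), with adjusted p of at most 0.0208. KO MI replicate 2, which held the lowest Dbh level, was also the library with the highest summed atrial and skeletal muscle genes. Without KO MI replicates 2 and 7 the log2 fold change was -0.82 (adjusted p = 0.0175), and with sex as a term it was -1.13 (adjusted p = 0.00639).

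In WT hearts Dbh did not pass the test. The log2 fold change of WT MI against WT SH was -0.55 (SE 0.22, adjusted p = 0.219, edgeR), although all WT MI libraries were lower (5.94% of tested genes lay lower without overlap, exact permutation p = 0.0286). Fitted to the libraries of WT SH and WT MI alone, the adjusted p was 0.0834 and Dbh was called, whereas with sex as a term the log2 fold change was -0.52 (adjusted p = 0.339). The response of Dbh to infarction was not shown to differ by genotype, with an interaction of -0.58 (SE 0.32, adjusted p = 0.437). Between genotypes, KO SH was above WT SH by 0.33 (SE 0.22, adjusted p = 0.390) without overlap, as did 8.35% of tested genes, and KO MI against WT MI was -0.25 (SE 0.23, adjusted p = 0.752) and turned to 0.057 without KO MI replicates 2 and 7.

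Ddc, the gene of the step before Dbh, rose after infarction in both genotypes and was higher in KO than in WT hearts. Ddc, which encodes aromatic L-amino acid decarboxylase and is also expressed outside nerves in the developing mouse heart, read 5.88, 4.36, 7.95 and 7.47 CPM in WT SH and 12.5, 14.8, 11.2 and 19.96 CPM in KO SH. It read 14.02, 14.8, 14.6 and 10.3 CPM in WT MI and 26.4, 25.3, 20.2 and 33.3 CPM in KO MI. Ddc was lowest in WT SH and highest in KO MI, with both of these groups clear of every other library. The share of all tested genes that separated in this way was not counted. Ddc was higher in KO SH than in WT SH by 1.19 (SE 0.20, adjusted p = 0.00197) and in KO MI than in WT MI by 0.97 (SE 0.19, adjusted p = 0.0113) on the log2 scale. It rose after infarction by 1.07 in WT (SE 0.20, adjusted p = 0.00841) and by 0.85 in KO (SE 0.19, adjusted p = 0.00929). Its call held without any single library in all 4 comparisons, and its interaction was -0.22 (adjusted p = 0.763).

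**Figure D2:**
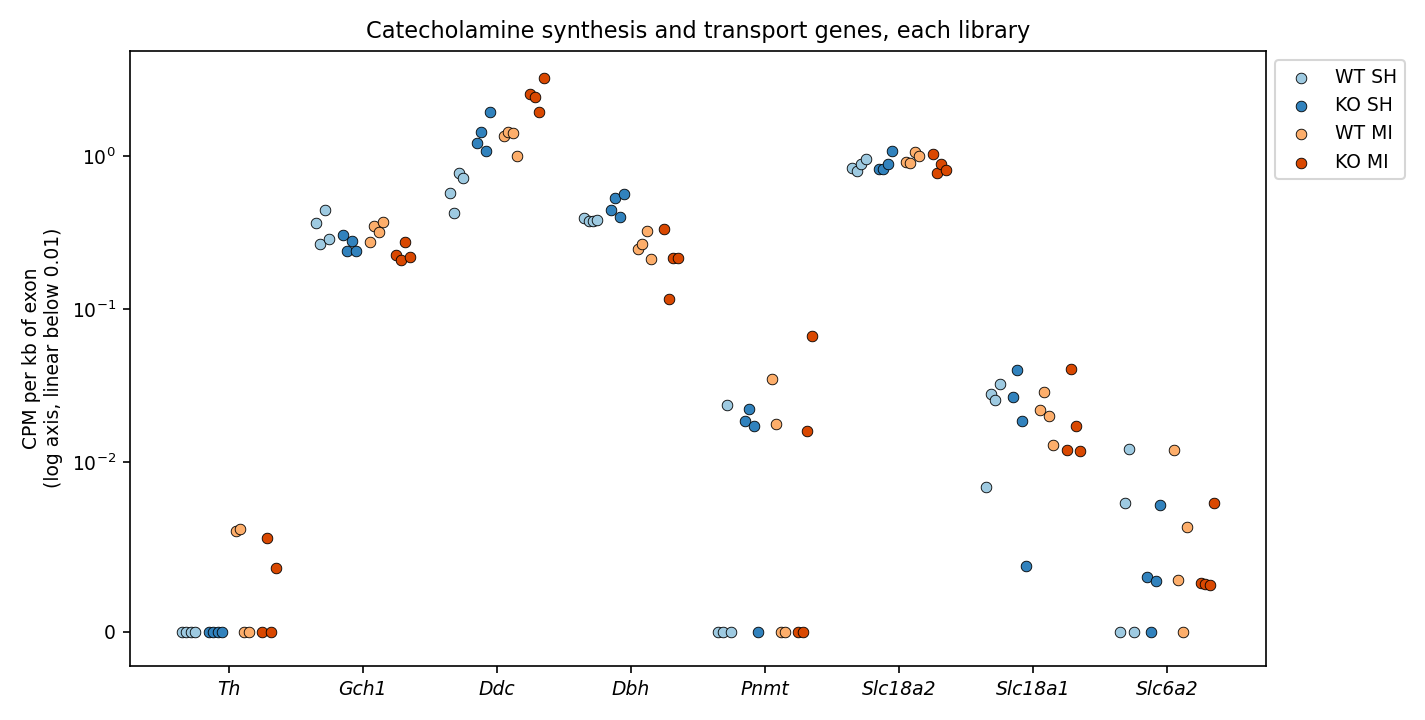
Levels of 8 genes of catecholamine synthesis and transport in each library (points, coloured by group), in CPM per kb of exon on a y axis that is logarithmic above 0.01 and linear below. Ddc and Slc18a2 sit highest and Th and Slc6a2 lowest, and across the 4 groups Ddc rises where Dbh falls between sham and infarct.

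Per length of exon, the steps of the pathway differed widely in level. Length here is that of all exons annotated for a gene in GENCODE M39, joined, so ratios between genes depend on the isoforms annotated. Averaged over the 16 libraries, Th stood at 0.00133 CPM per kb, Ddc at 1.47, Dbh at 0.337 and Slc6a2 at 0.00441. The value of Th rests on 7 counts in all. The vesicular monoamine transporter Slc18a2, which loads monoamines into vesicles, stood at 0.906 CPM per kb, and Gch1, which makes the cofactor of Th, stood at 0.292. Pnmt, which turns noradrenaline into adrenaline, stood at 0.0135 and never rose above 3 counts. Of the list of 18 noradrenergic genes, 8 were tested, and Ddc was the gene called in each of the 4 comparisons between groups, with 7 not called. Their median log2 fold change was -0.16 in KO SH against WT SH, 0.073 in KO MI against WT MI, 0.0039 in WT MI against WT SH and 0.18 in KO MI against KO SH.

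Sox10 (ENSMUSG00000033006, GRCm39 chr15:79039108-79049469, minus strand) was detected in all libraries with 5 to 24 counts each. It read 0.461, 0.294, 0.429 and 0.459 CPM in WT SH and 0.383, 0.459, 0.146 and 0.236 CPM in KO SH. It read 0.315, 0.215, 0.112 and 0.130 CPM in WT MI and 0.285, 0.236, 0.0964 and 0.161 CPM in KO MI. The WT SH libraries were the highest group, and the infarct groups were low with a single WT MI library above the lowest WT SH library. The order of means was WT SH (0.411 ± 0.0793 CPM, SD, n = 4), KO SH (0.306 ± 0.141), KO MI (0.194 ± 0.0830) and WT MI (0.193 ± 0.0929), and every pair of neighbours overlapped.

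No difference in Sox10 passed the test over all genes. The largest was WT MI against WT SH, at -1.08 on the log2 scale (SE 0.41, adjusted p = 0.181, edgeR; exact permutation p = 0.0571). The same comparison in KO gave -0.63 (SE 0.42, adjusted p = 0.373), and KO SH against WT SH gave -0.44 (SE 0.39, adjusted p = 0.546). After infarction the genotypes differed by 0.0065 (SE 0.44, adjusted p = 0.998). The interaction was 0.45 (SE 0.59, adjusted p = 0.777). With sex as a term, WT MI against WT SH was -1.38 (adjusted p = 0.103), and in both KO groups the 2 female libraries, replicates 1 and 2, read above the 2 male libraries, a split noticed after the values were seen and absent from WT MI. Sox10 is also a gene of melanocytes, and a summed melanocyte list of 6 genes ranged over 4.35 to 6.31 CPM in WT SH, 1.38 to 2.61 in KO SH, 3.31 to 5.19 in WT MI and 2.57 to 5.53 in KO MI, and its part in the Sox10 values was not tested.

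S100b (ENSMUSG00000033208, GRCm39 chr10:76085090-76097159, plus strand, overlapping Dip2a on the opposite strand) encodes a calcium-binding protein abundant in Schwann cells. It read 0.404, 0.134, 0.458 and 0.193 CPM in WT SH and 0.406, 0.432, 0.271 and 0.420 CPM in KO SH. It read 0.526, 0.258, 0.337 and 0.413 CPM in WT MI and 0.407, 0.453, 0.424 and 0.455 CPM in KO MI. The WT SH libraries split into a pair near the other groups and a pair well below, KO SH replicate 3 lay apart below its group, and KO MI was the tightest group, with a range inside that of WT MI. The order of means was KO MI (0.435 ± 0.0234 CPM, SD, n = 4), WT MI (0.383 ± 0.114), KO SH (0.382 ± 0.0748) and WT SH (0.297 ± 0.158), and every pair of neighbours overlapped. The log2 fold changes were 0.34 in KO SH against WT SH (SE 0.35, adjusted p = 0.603), 0.18 in KO MI against WT MI (SE 0.32, adjusted p = 0.893), 0.36 in WT MI against WT SH (SE 0.34, adjusted p = 0.652) and 0.19 in KO MI against KO SH (SE 0.33, adjusted p = 0.770). None passed. Sox10 and S100b, both used as Schwann cell genes, had a Pearson r of -0.025 over the 16 libraries, as a description of values that rest on 5 to 25 counts each.

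Ngfr (ENSMUSG00000000120, GRCm39 chr11:95459638-95478561, minus strand, with a long noncoding RNA on the same strand) encodes the p75 neurotrophin receptor, present on sympathetic axons and on Schwann cells and also on mesenchymal cells outside nerves. Per length it was the most abundant member, at 1.35 CPM per kb of exon over the 16 libraries. It read 5.77, 3.80, 4.75 and 3.94 CPM in WT SH and 4.37, 4.89, 4.40 and 6.09 CPM in KO SH. It read 3.47, 4.43, 4.23 and 3.95 CPM in WT MI and 4.47, 5.75, 4.95 and 5.16 CPM in KO MI. All KO MI libraries lay above all WT MI libraries, by as little as 4.47 against 4.43 CPM, and the other groups overlapped. The order of means was KO MI (5.08 ± 0.529 CPM, SD, n = 4), KO SH (4.94 ± 0.801), WT SH (4.56 ± 0.905) and WT MI (4.02 ± 0.417), and every pair of neighbours overlapped.

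Ngfr in KO MI against WT MI had a log2 fold change of 0.34 (SE 0.14, adjusted p = 0.305, edgeR), and the exact permutation p was 0.0286. The unadjusted p was 0.0264, and 2.74% of all tested genes lay higher in KO MI without overlap. KO SH against WT SH gave 0.11 (SE 0.14, adjusted p = 0.710), WT MI against WT SH gave -0.19 (SE 0.14, adjusted p = 0.546) and KO MI against KO SH gave 0.045 (SE 0.14, adjusted p = 0.884). Ngfr therefore differed between groups by less than the least fold change used for a call in all 4 comparisons.

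Prph (ENSMUSG00000023484, GRCm39 chr15:98952872-98956862, plus strand) encodes peripherin, the intermediate filament of peripheral axons. Its counts were 6, 0, 7 and 2 in WT SH and 1, 3, 4 and 1 in KO SH. They were 5, 2, 0 and 4 in WT MI and 2, 0, 11 and 0 in KO MI. A value of 0 occurred in 3 of the 4 groups, and a single KO MI library, replicate 3, held 11 of the 13 counts of its group. Prph failed the same filter as Th, and exact permutation tests on log2(CPM + 0.05) gave p between 0.629 and 0.8286 in the 4 comparisons.

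**Figure D3:**
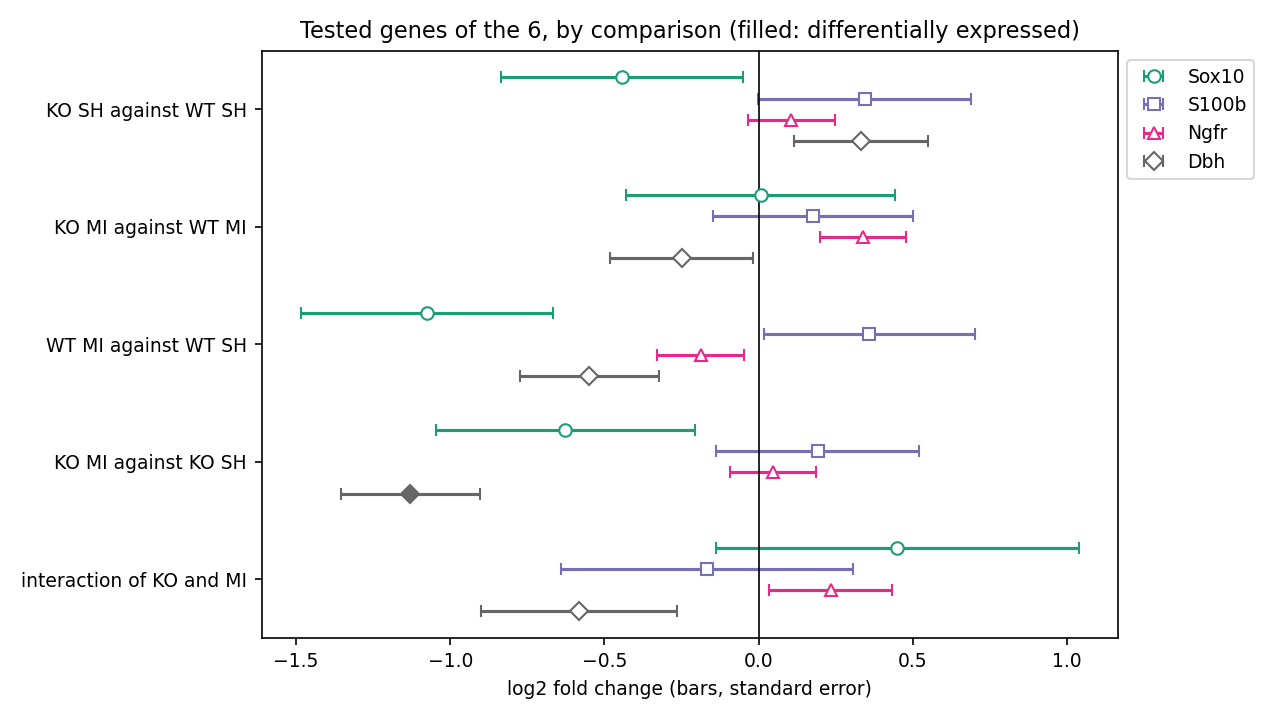
Log2 fold changes of the 4 tested members (x axis) in each of 5 comparisons (y axis), with 1 standard error on each side from the edgeR fit to all 16 libraries. The filled point, Dbh in KO MI against KO SH at -1.13, is the difference called, and the open points are those not called.

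Across the comparisons, Dbh in KO MI against KO SH was the member call. In KO SH against WT SH, 0 of 4 tested members were called (5.01% of all tested genes were, 2.48% higher and 2.53% lower), and 0 had an unadjusted p under 0.05 by edgeR or by DESeq2. In KO MI against WT MI, 0 were called (1.73% of all tested genes, 0.57% higher and 1.16% lower), and 1, Ngfr, had an unadjusted p under 0.05 by either tool. In WT MI against WT SH, 0 were called (2.78% of all tested genes, 2.13% higher and 0.645% lower), and 2, Sox10 and Dbh, had an unadjusted p under 0.05 by either tool. DESeq2 called 0, 0, 0 and 1 members in KO SH against WT SH, KO MI against WT MI, WT MI against WT SH and KO MI against KO SH. The interaction called 0 members, with 0 at an unadjusted p under 0.05 by either tool, beside 0.0248% of all tested genes (0.0198% higher and 0.00496% lower).

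Of the 20 genes of the Schwann cell list 17 were tested, and 13 of the 17 had a log2 fold change below 0 in WT MI against WT SH (median -0.31) and 14 in KO MI against KO SH (median -0.28), beside 50.9% and 51.9% of all tested genes. The summed level of the 20 genes went the other way. It was 128.7 to 145.7 CPM in WT SH and 146.2 to 157.9 CPM in WT MI. In KO SH it was 140.3 to 149.5 CPM and in KO MI 145.1 to 158.6 CPM, which overlapped. This sum rests largely on Ncam1 and Art3, which averaged 64.1 and 37.7 CPM over the 16 libraries. Of the 17, 1 was called in KO SH against WT SH, 0 in KO MI against WT MI, 2 in WT MI against WT SH and 1 in KO MI against KO SH, which is 5.88%, 0%, 11.8% and 5.88% beside 5.01%, 1.73%, 2.78% and 7.42% of all tested genes. In WT MI against WT SH, Ncam1, an adhesion molecule of glia, axons and cardiomyocytes, rose by 0.57 (SE 0.064, adjusted p = 0.000109) and Kcna2, a potassium channel of axons and glia, fell by 0.93 (SE 0.24, adjusted p = 0.0473). The call of Kcna2 was lost without WT SH replicate 1 or WT MI replicate 2, 3 or 4, at an adjusted p of 0.105 to 0.145, and with sex as a term (0.101). Between genotypes the medians of the list were -0.12 in KO SH against WT SH and -0.049 in KO MI against WT MI.

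Col28a1, a collagen found around peripheral glia, was the gene of the Schwann cell list called between genotypes, and in sham hearts only. It read 1.13, 0.855, 0.972 and 0.871 CPM in WT SH and 1.85, 1.78, 1.75 and 2.31 CPM in KO SH, and lay between 0.387 and 0.906 CPM in the 8 MI libraries. All KO SH libraries were above all others, and the share of all tested genes that did so was not counted. Col28a1 was higher in KO SH than in WT SH by 0.995 (SE 0.20, adjusted p = 0.00676) and fell after infarction in KO by 1.34 (SE 0.21, adjusted p = 0.00110). KO MI and WT MI overlapped (exact permutation p = 0.371), and it was not called there. All WT MI libraries lay below all WT SH libraries (exact permutation p = 0.0286, beside 5.94% of tested genes lower without overlap), without a call. Its direction from KO SH to KO MI was that of Dbh.

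Myelin genes were sparse, with 11 of 18 tested. Pmp22, a membrane protein made by many cell types, averaged 26.3 CPM. In KO MI against WT MI, Plekhb1, a membrane-binding protein, was lower by 0.88 (SE 0.21, adjusted p = 0.0362), a call lost without WT MI replicate 1 or 2 (adjusted p = 0.111 in both). In KO MI against KO SH, Gjc3, a connexin of glia, fell by 1.54 (SE 0.48, adjusted p = 0.0482), a call lost without KO SH replicate 4 or KO MI replicate 1 (adjusted p of 0.102 to 0.145). The median of the list was 0.11 in WT MI against WT SH and 0.30 in KO MI against KO SH, so its sign was not that of the median of the Schwann cell list.

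Neuronal and axonal genes beside Prph gave 14 tested of 22. Neurofilaments were scarce, with at most 4 counts for Nefl, 8 for Nefm and 5 for Nefh in any library. The genes with higher levels are expressed by other cells too. Snap91, a clathrin assembly protein of nerve terminals, had log2 fold changes of -1.07 in KO SH against WT SH (SE 0.22, adjusted p = 0.00737) and of -0.87 in KO MI against WT MI (SE 0.22, adjusted p = 0.0477), the latter lost without WT MI replicate 1, 2 or 3 (adjusted p of 0.102 to 0.147), in the robust fit (0.122) and with those groups fitted alone (0.266). Thy1, a surface protein of neurons, fibroblasts and T cells, was also lower in KO SH, at -0.63 against WT SH (SE 0.091, adjusted p = 0.000492). In KO MI against KO SH, Uchl1, a neuronal deubiquitinase, rose by 0.74 (SE 0.22, adjusted p = 0.0379), Tubb3, a neuronal tubulin, rose by 1.15 (SE 0.41, adjusted p = 0.0761) and Syp, a synaptic vesicle protein, fell by 0.87 (SE 0.32, adjusted p = 0.0886). Without KO MI replicate 2, the library highest in skeletal muscle genes, Uchl1 came to 0.47 (adjusted p = 0.172) and Tubb3 to 0.80 (adjusted p = 0.305). Tubb3 was also lost without KO SH replicate 1, 2 or 4 or KO MI replicate 3, at an adjusted p from 0.128, and Syp without any library but KO SH replicate 4 (0.106 to 0.220). With KO SH and KO MI fitted alone, none of the 3 was called (adjusted p of 0.133, 0.169 and 0.113 for Uchl1, Tubb3 and Syp).

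Cholinergic genes gave 4 tested of 12 and 0 calls in any comparison. The highest, Ache, which breaks down acetylcholine, averaged 1.05 CPM and Slc5a7, the choline transporter, averaged 0.646 CPM. Slc5a7 read 0.782 to 1.01 CPM in WT MI and 0.401 to 0.694 CPM in KO MI, groups that did not overlap (exact permutation p = 0.0286), but it was not called. How many of all tested genes lay lower without overlap in this comparison is not given here, so this separation is a description only.

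Among the receptors that nerves use to read their targets, Ret moved most widely. Ret, the signalling receptor for the GDNF family, which also acts in other cell types, read 5.38, 5.45, 4.09 and 5.08 CPM in WT SH and 2.43, 2.27, 2.48 and 1.91 CPM in KO SH. It read 2.65, 3.27, 1.96 and 3.84 CPM in WT MI and 1.71, 0.591, 0.906 and 1.55 CPM in KO MI. The WT SH libraries were above all others and the KO MI libraries below all others, the reverse of Ddc. How many of all tested genes separated likewise was not counted. Ret was lower in KO hearts, with log2 fold changes of -1.13 in KO SH against WT SH (SE 0.24, adjusted p = 0.00830) and -1.32 in KO MI against WT MI (SE 0.26, adjusted p = 0.0104). The last call was lost where the libraries of those 2 groups were fitted alone (adjusted p = 0.120). After infarction it fell by 0.95 in KO (SE 0.26, adjusted p = 0.0249) and by 0.77 in WT (SE 0.23, adjusted p = 0.0866), the last call lost without any library but WT MI replicate 4 (adjusted p of 0.106 to 0.212). Of the 20 receptor genes, all tested, 0, 0, 2 and 0 were called higher and 2, 2, 1 and 1 lower in KO SH against WT SH, KO MI against WT MI, WT MI against WT SH and KO MI against KO SH. The shares called in either direction were 10%, 10%, 15% and 5%, beside 5.01%, 1.73%, 2.78% and 7.42% of all tested genes.

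Ntrk3, the receptor for neurotrophin 3, had a log2 fold change of -1.19 in KO MI against WT MI (SE 0.26, adjusted p = 0.0223). It read 3.01, 2.03, 2.35 and 1.85 CPM in KO MI against 4.47 to 6.39 CPM in WT MI. Without KO MI replicates 2 and 7 together it was -0.99 (adjusted p = 0.163) and not called. In KO SH against WT SH it was -0.85 (SE 0.26, adjusted p = 0.0547), where WT SH ranged from 2.52 to 7.59 CPM around the KO SH libraries, and the call was lost without WT SH replicate 2 or 4 or any KO SH library (adjusted p of 0.111 to 0.207). In WT MI against WT SH, Unc5c, a netrin receptor, rose by 1.24 (SE 0.29, adjusted p = 0.0249) and Ntrk2, the receptor for Bdnf, rose by 0.74 (SE 0.20, adjusted p = 0.0528), a call lost without any library but WT SH replicate 4 and WT MI replicate 4 (0.111 to 0.155).

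Of the 15 ligands 13 were tested, and 3, 0, 2 and 2 were called higher and 1, 0, 0 and 1 lower in the comparisons in the same order. These were 30.8%, 0%, 15.4% and 23.1% of the 13, beside 5.01%, 1.73%, 2.78% and 7.42% of all tested genes. Slit3, a repellent of axons made by many mesenchymal cells, was higher in KO SH than in WT SH by 0.74 (SE 0.19, adjusted p = 0.0241) and rose after infarction in WT by 1.04 (SE 0.19, adjusted p = 0.00634) and in KO by 0.57 (SE 0.18, adjusted p = 0.0533), the last call lost without KO SH replicate 1 or 3 or KO MI replicate 3 or 7 (log2 fold changes of 0.45 to 0.54) or without both KO MI replicates 2 and 7 (0.47, adjusted p = 0.181). Its relative Slit2 rose in WT MI against WT SH by 0.53 (SE 0.13, adjusted p = 0.0377), and without WT SH replicate 4 or WT MI replicate 2 its log2 fold change was 0.47 and 0.45, under the least fold of a call. Efna5, a membrane-bound guidance cue, was higher in KO SH than in WT SH by 0.54 (SE 0.087, adjusted p = 0.00130), and without KO SH replicate 2 it was 0.48.

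Of the neurotrophins, Bdnf had a log2 fold change of -0.89 in KO SH against WT SH (SE 0.29, adjusted p = 0.0705), with KO SH libraries at 0.855 to 1.102 CPM and WT SH libraries at 1.60 to 2.14 CPM, a call lost without any library but WT SH replicate 4 (adjusted p of 0.107 to 0.167). Ntf3, which encodes neurotrophin 3, fell in KO MI against KO SH by 0.70 (SE 0.17, adjusted p = 0.0164), from 1.52 to 1.98 CPM in KO SH to 0.8288 to 1.36 CPM in KO MI. Lif, a cytokine that acts on sympathetic neurons and many other cells, rose in the same comparison by 1.09 (SE 0.31, adjusted p = 0.0303), but without KO MI replicate 2 the adjusted p was 0.133. Over all 7 nerve lists, 87 of 125 genes were tested, and 10, 5, 8 and 10 were called in KO SH against WT SH, KO MI against WT MI, WT MI against WT SH and KO MI against KO SH, with 0 in the interaction. These were 11.5%, 5.75%, 9.20% and 11.5% of the 87, beside 5.01%, 1.73%, 2.78% and 7.42% of all tested genes.

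**Figure D4:**
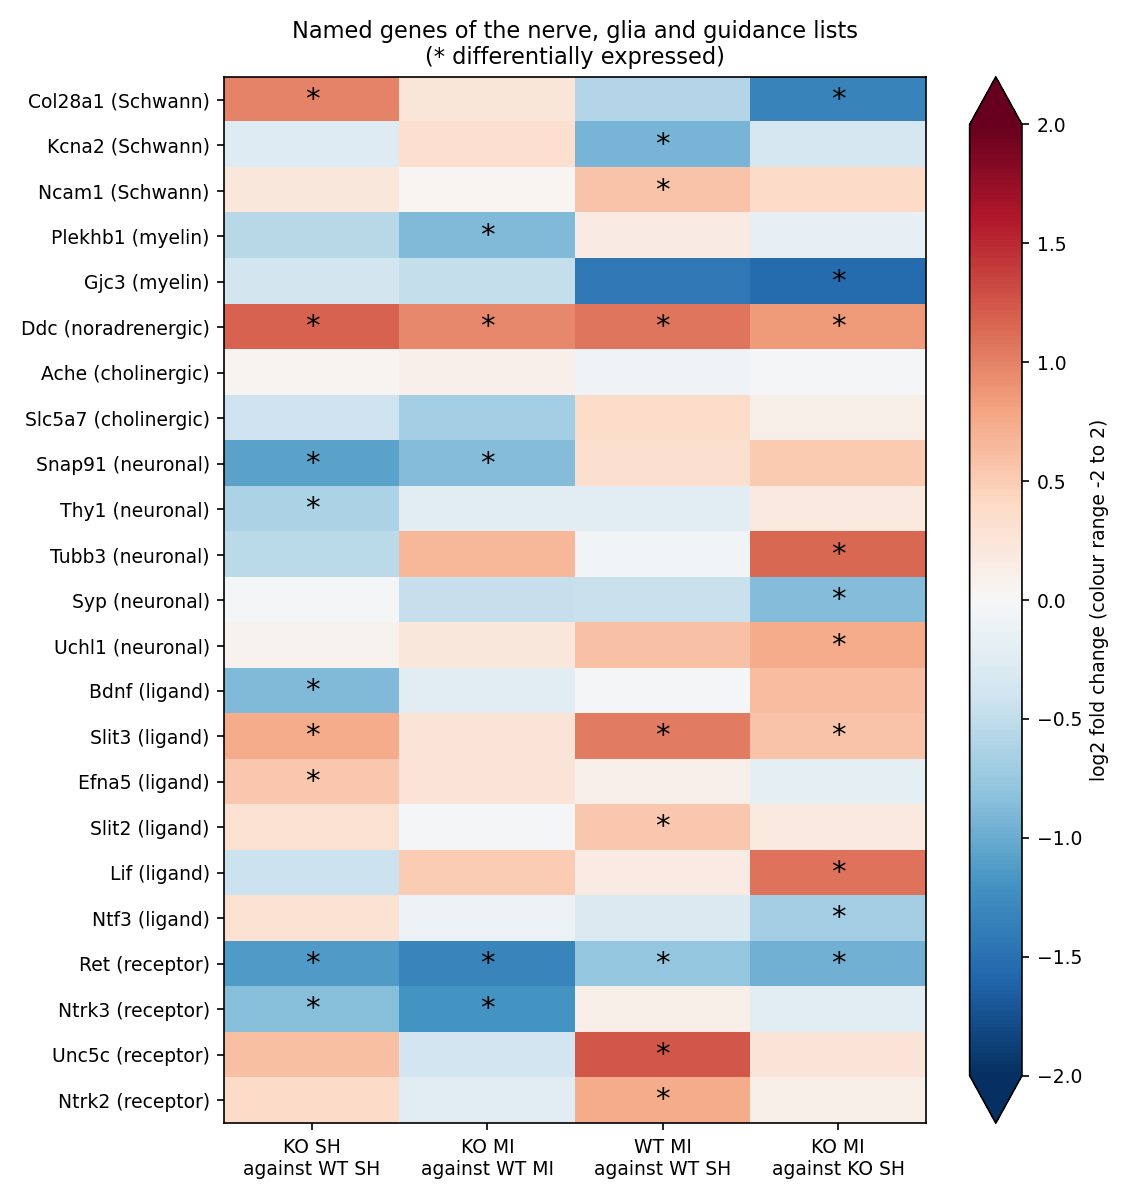
Log2 fold changes (colour, from -2 to 2) of the 23 genes named from the nerve lists (y axis, with the list in brackets) in the 4 comparisons (x axis), with an asterisk on each difference called. Ddc is called higher and Ret lower in all 4 columns, and most other genes are called in 1 column.

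Other cell types moved with the same groups. The summed level of 8 fibroblast genes was 2196 to 2572 CPM in WT SH, 2054 to 2258 in KO SH, 2666 to 3115 in WT MI and 2820 to 3161 in KO MI, with all MI libraries above all SH libraries, the reverse of Dbh. The sum of 8 macrophage genes was 57.1 to 66.7, 49.02 to 56.98, 73.6 to 101 and 62.3 to 131 CPM in the same groups. In KO MI against KO SH, all 8 had a log2 fold change above 0 and 7 were called higher, beside 5.31% of all tested genes. The sum of 7 ventricular cardiomyocyte genes was 25153 to 36275 CPM in WT SH and overlapped in KO SH (24062 to 25155) and KO MI (23087 to 25281), where 0 of 7 were called. Skeletal muscle genes were at 8.61 to 14.4 CPM in KO SH and 31.4 to 198 CPM in KO MI, and atrial genes at 45.6 to 124 and 159 to 2428 CPM. Of 7 epicardial and mesothelial genes, 4 were called higher and 1 lower in KO SH against WT SH, and 1 lower in KO MI against WT MI. In WT MI against WT SH 5 were called higher, and in KO MI against KO SH 3. These were 71.4%, 14.3%, 71.4% and 42.9% of the 7, beside 5.01%, 1.73%, 2.78% and 7.42% of all tested genes. Their sum was nevertheless alike in the sham groups, at 29.4 to 31.3 CPM in WT SH and 29.8 to 32.6 CPM in KO SH. The part of these cell types in the fall of Dbh was not tested. The fit without KO MI replicates 2 and 7 given above does not test it. The kept replicates 1 and 3 still summed to 31.4 and 43.9 CPM in skeletal muscle genes and 341 and 857 CPM in atrial genes.

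**Figure D5:**
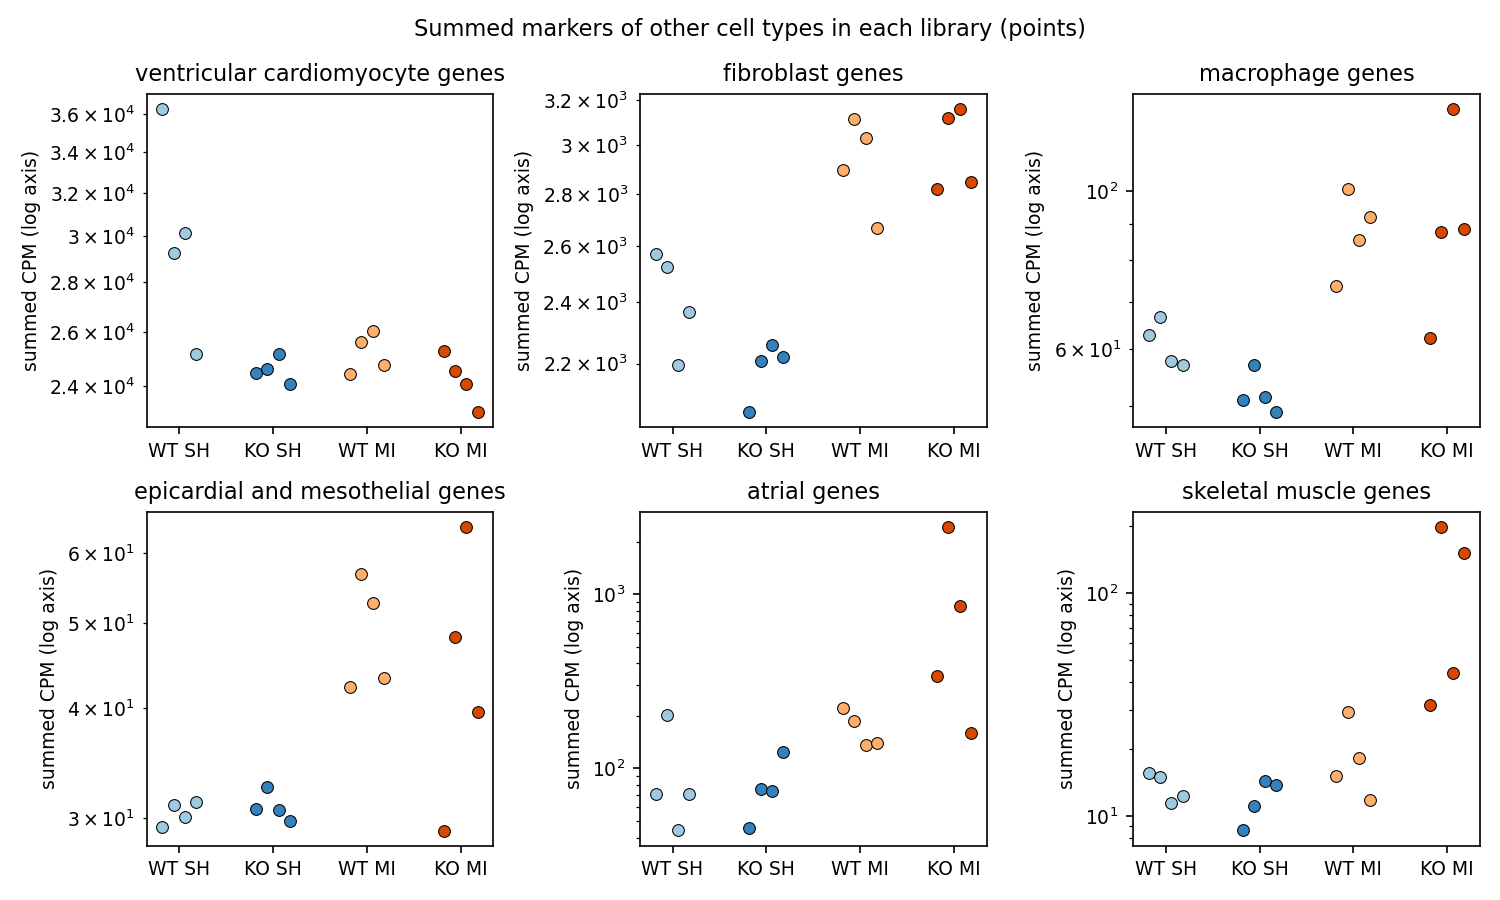
Summed CPM of marker genes of 6 other cell types in each library (points, log y axes), by group on the x axis. Fibroblast sums of all 8 MI libraries lie above those of all 8 SH libraries, and 2 KO MI libraries stand far above the rest in skeletal muscle genes.

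The genes whose levels followed Dbh, Sox10, Ngfr and S100b, the 4 tested members, most closely over the 16 libraries were in none of the nerve lists. For Dbh these were Gm13479, a noncoding gene on the same chromosome (Pearson r = 0.94), Tsc22d4 (0.92) and Gtf2i (0.92). For Sox10 they included Serbp1 (0.88) and 4632428C04Rik (0.83), for Ngfr Fkbp15 (0.86), Tor3a (0.81) and Rccd1 (0.80), and for S100b Gfod2 (0.84), Lemd3 (0.77) and Zfp995 (0.75). These are the highest of about 14118 genes compared on log2(CPM + 0.5), the libraries share their 4 groups, and no test is attached. Among the members themselves, the highest r was that of Sox10 and Dbh (0.50), and the lowest that of Th and Dbh (-0.63), the latter resting on 4 libraries with any Th count.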

How the data were processed

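RNA of whole mouse ventricles was sequenced in 16 libraries, 4 per group. The authors deposited expected counts from RSEM for each gene, not normalized and already whole, and 0 columns lacked a mapped sample. The study's methods name Skewer, STAR and RSEM on GRCm39, whereas the submitters' processing notes name cutadapt (3.4), HISAT2 (2.2.1) and RSEM (1.1.17), so the aligner is uncertain. The annotation release is not given in the sources used here, and 47772 of 51912 identifiers matched GENCODE M39. RSEM shares multimapping reads between genes, and libraries were stranded, but antisense partners of Th, Dbh and S100b could still take reads where strand was not used.

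Genes with at least 10 summed counts in each group (20159) were tested in R (4.3.3) with edgeR (4.0.16): TMM scaling, 1 quasi-likelihood fit to all 16 libraries, 4 two-sided contrasts and the interaction, with Benjamini-Hochberg adjustment. A call needed an adjusted p under 0.1 and a change of 0.5 or more on the log2 scale, and the fit was tested on simulated data. Exact permutation tests used log2(CPM + 0.05). CPM uses the TMM-scaled size. Floors of 3 counts and counting SDs cover counting error only. DESeq2 (1.42.0), other filters, scalings, sex, the replicate number as a block and left-out libraries were alternatives. The members and the gene lists were chosen with earlier results of these data known. Named from each nerve list were up to 3 called genes of largest change per comparison, or its 2 most abundant genes where it had no call, and the 3 genes most like each member. Labels name separate samples and do not say that each is 1 animal, so p-values may in part measure technical spread. Some items covered by this rule are not reported here.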

Additional observations from a re-analysis of the deposited data

Results flagged for a closer look

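In a group of 4 libraries, a library was marked when its gap to the nearest other library took up more of the range of the group than Dixon's 95% limit allows. Over 29 genes and their groups this gave 6 of 114 combinations, and chance marks about 1 in 20. Among the members, S100b in KO SH replicate 3 was at 0.271 CPM, below the other KO SH libraries at 0.406 to 0.432. Tubb3 in the same library was at 0.542 CPM, above the others at 0.157 to 0.216. Syp in KO MI replicate 7 was at 0.187 CPM, below 0.305 to 0.315. Bdnf in WT MI replicate 4 was at 2.26 CPM, above 1.51 to 1.62. Slit2 in WT SH replicate 4 was at 13.3 CPM, below 15.8 to 16.1, and in KO MI replicate 7 it was at 30.2 CPM, above 18.5 to 19.2.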

How the results depend on the processing

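Over 410 alternatives for the 20 member log2 fold changes, 394 kept direction and side of the threshold. Some of these alternatives changed only a cutoff on the main fit, where the direction could not change. The fall of Dbh in KO MI against KO SH was called in every alternative run. Replicate numbers did not pair libraries throughout (correlation of deviations from -0.061 to 0.23, not each library correlating best with its own number, and KO MI numbered 1, 2, 3 and 7). Replicate 2 did correlate best with its own number in each comparison. So did replicate 1 in KO MI against KO SH and replicate 4 in WT MI against WT SH. With the replicate number as a block, 1 member (Sox10, -1.15, adjusted p = 0.0989) was called in WT MI against WT SH, 2 nerve list genes were called in the interaction, and the calls of Gjc3 (-1.44, adjusted p = 0.104) and Slit3 (0.44, adjusted p = 0.116) in KO MI against KO SH were lost. Number 7 occurs only in KO MI, so the block also takes KO MI replicate 7 out of every comparison with KO MI. With only the groups of the contrast fitted, 1 member (Dbh) was called in WT MI against WT SH, and 3 nerve list genes in KO MI against WT MI. With sex as a term, Sox10 in KO MI against WT MI turned to -0.073. Leaving out KO MI replicates 2 and 7, it turned to -0.046, Dbh in KO MI against WT MI to 0.057 and Ngfr in KO MI against KO SH to -0.072, and 1 nerve list gene was called in the interaction. With log2(CPM + 0.5), the exact permutation p of Prph in KO MI against KO SH was 0.971, with the sign of the mean difference turned. The 32 called log2 fold changes of the other named genes kept their direction in all 620 alternatives run and lost the call in 79. The 620 also include the changes of a cutoff alone. The causes were not tested.

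Leaving out single libraries, called nerve list genes ranged from 4 to 7 in WT MI against WT SH (4 without WT MI replicate 2, 5 without WT SH replicate 1), 3 to 6 in KO MI against WT MI (3 without WT MI replicate 1 or 2), 6 to 15 in KO MI against KO SH (6 when KO MI replicate 2 was left out, 15 when replicate 7 was) and 0 to 2 in the interaction (2 without KO MI replicate 7). Log2 fold changes near 0 changed sign: Sox10 in KO MI against WT MI ranged from -0.24 to 0.35, Ngfr in KO MI against KO SH from -0.021 to 0.16, Ngfr in KO SH against WT SH from -0.010 to 0.25, and the S100b interaction from -0.41 to 0.061. A minimum of 10 counts in every library left Sox10 and S100b out, and the interaction could not be tried within the groups of a single contrast. The depth limits Th and Prph to a statement of counts, and Sox10 and S100b, at 5 to 25 counts per library, to differences well above their counting error.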
